A study of Mus musculus with 34 samples.

Results

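Collagens, small proteoglycans and meningeal markers were followed here along 3 newborn mouse brains, through 10 genes given by symbol (Col1a1, Col1a2, Col3a1, Dcn, Lum, Fmod, Ogn, Foxc1, Slc6a13 and Igf2). The genes are 10 of the 20145 named genes on the array. Matching by RefSeq accession gave 1 probe for each gene, and the probes of all 10 genes were well above background on all 34 arrays. The brains came from 3 male C57BL/6J mice at post-natal day 3 with no treatment. The first was cut from end to end into 15 coronal fractions, another into 8 horizontal fractions and the last into 11 sagittal fractions, and each fraction went to its own single-colour Agilent array. Every fraction was nominally 500 μm thick, except that sagittal fractions 1 and 11 each pool a pair of cut fractions. The first and last fractions of a series are called surface fractions (2 in each series, 6 in all) and the fractions between them inner fractions (13 coronal, 6 horizontal and 9 sagittal, 28 in all). An inner fraction still holds the rim of the brain around its edge, so the comparison sets end caps against slices and not tissue types.

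The meninges are the membranes around the brain, and their fibroblasts lay down a matrix of fibrillar collagen. Type I collagen is built from the chains of Col1a1 and Col1a2, and type III collagen from Col3a1. Decorin (Dcn), lumican (Lum), fibromodulin (Fmod) and osteoglycin (Ogn) are small leucine-rich proteoglycans, which bind collagen fibrils and govern how they assemble. Foxc1 is a forkhead transcription factor required for the meninges to form, Slc6a13 is a GABA and taurine transporter of the pial membrane, and Igf2 is an imprinted growth factor secreted by meninges and choroid plexus. Fibroblasts of vessels, bone and skin make several of the same matrix proteins.

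The probes read were A_55_P2118520 (Col1a1), A_51_P182303 (Col1a2), A_51_P515605 (Col3a1), A_51_P334104 (Dcn), A_51_P167527 (Lum), A_51_P207622 (Fmod), A_51_P295085 (Ogn), A_55_P1967761 (Foxc1), A_51_P438083 (Slc6a13) and A_55_P2118173 (Igf2). Values are log2 normalized signals, the log2 of the background-subtracted signal less the log2 of the 75th percentile of the array, so that 0 marks the signal of the probe at that percentile. Feature Extraction called 29598 to 37091 of 59305 spots well above background on an array, no spot was saturated, and repeated spots of a probe had a pooled SD of 0.10 to 0.21 on the log2 scale. Each series is 1 mouse, so plane and mouse cannot be told apart. The limma p-values measure the spread among the inner fractions of a series and between its 2 ends, pooled over the series. They do not measure the spread between animals. In a whole slice, fewer cells of a type and less RNA per cell cannot be told apart. Labels do not say at which end the counting starts. Neuronal markers set beside the series for orientation, added with earlier results known, showed Hoxc4 of the hindbrain highest in coronal fraction 2 (4.56), Tbx21 of the olfactory bulb highest in coronal fraction 15 (3.46) and Hcrt of the hypothalamus highest in horizontal fraction 7 (2.35).

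The 250 bases before the annotated start are shown for 5 genes that were higher in the surface fractions in the mean of the 3 planes. They are the collagen genes Col1a2 and Col3a1, the proteoglycan gene Ogn, the transcription factor Foxc1 and the transporter Slc6a13. No window of the growth factor Igf2 is shown. RefSeq windows on GRCm38.p6 were matched for 7 of the 10 genes (Col1a2, Col3a1, Foxc1, Slc6a13, Ogn, Igf2 and Fmod). Capitals mark 4 motifs, each searched on both strands: the CCAAT box, the Sp1-type box GGGCGG, the TATA box read as TATAAA, and the forkhead core, which was read as TAAACA. A motif on the minus strand shows as its reverse complement.
Col1a2 (chr6:4505368-4505617, plus strand): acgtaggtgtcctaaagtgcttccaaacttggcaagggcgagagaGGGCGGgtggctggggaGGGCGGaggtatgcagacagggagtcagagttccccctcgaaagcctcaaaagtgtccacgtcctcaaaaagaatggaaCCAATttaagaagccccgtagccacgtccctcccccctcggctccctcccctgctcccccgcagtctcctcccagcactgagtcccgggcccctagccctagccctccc
Col3a1 (chr1:45311288-45311537, plus strand): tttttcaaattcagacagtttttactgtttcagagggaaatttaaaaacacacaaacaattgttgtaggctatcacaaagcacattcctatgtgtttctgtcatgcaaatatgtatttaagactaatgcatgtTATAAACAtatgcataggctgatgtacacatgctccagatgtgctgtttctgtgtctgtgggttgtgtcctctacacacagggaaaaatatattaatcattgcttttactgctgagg
Ogn (chr13:49607765-49608014, plus strand): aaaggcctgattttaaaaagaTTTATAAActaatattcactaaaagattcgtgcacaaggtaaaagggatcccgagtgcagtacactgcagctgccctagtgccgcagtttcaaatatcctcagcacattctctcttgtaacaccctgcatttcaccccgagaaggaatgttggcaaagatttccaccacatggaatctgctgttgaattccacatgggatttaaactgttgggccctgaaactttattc
Foxc1 (chr13:31806396-31806645, plus strand): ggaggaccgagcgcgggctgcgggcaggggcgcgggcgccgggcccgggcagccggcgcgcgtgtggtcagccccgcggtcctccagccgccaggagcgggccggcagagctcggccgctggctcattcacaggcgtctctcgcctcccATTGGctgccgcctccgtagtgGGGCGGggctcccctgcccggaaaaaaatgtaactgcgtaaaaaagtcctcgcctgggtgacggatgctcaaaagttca
Slc6a13, first start (chr6:121300038-121300287, plus strand): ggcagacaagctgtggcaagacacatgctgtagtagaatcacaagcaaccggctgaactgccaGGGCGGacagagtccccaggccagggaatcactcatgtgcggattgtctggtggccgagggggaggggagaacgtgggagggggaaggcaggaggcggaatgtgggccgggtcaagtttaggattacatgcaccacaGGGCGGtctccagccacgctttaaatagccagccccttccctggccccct
None of the 4 motifs occurred in all 5 windows. CCAAT lay at -109 to -105 in Col1a2 and on the minus strand at -101 to -97 in Foxc1, and GGGCGG occurred in Col1a2, Foxc1 and Slc6a13. In Col3a1 a TATAAA match (-117 to -112) and the forkhead core (-115 to -110) overlapped. In Ogn TATAAA matches on opposite strands overlapped (-227 to -222 and -229 to -224). Over the 32851 RefSeq windows of the same length, the CCAAT box was found in 33.8%, the Sp1-type box in 32.7%, the TATA box in 12.4% and the forkhead core in 12.0%. GC content ran from 35.2% in Col3a1 to 70.8% in Foxc1, against a median of 52.4%. A match of letters is a description and not a binding site.

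All 10 genes were higher in the surface fractions than in the inner fractions when the 3 planes were averaged, by 0.77 (Lum) to 1.24 (Slc6a13) on the log2 scale, or 1.70-fold to 2.37-fold. Of the 34186 probes tested, 7.45% were higher and 5.36% lower by the same test (limma, Benjamini-Hochberg adjusted p under 0.05 over all probes). The median difference was 0.93 for the 10 genes and 0.03 for all probes. Exact two-sided permutation of the positions within each series, over 161700 arrangements, gave p from 1.24e-05 for Slc6a13 to 0.00314 for Col1a1. The permutation takes the fractions of a series as exchangeable, which ordered neighbouring slices of 1 brain are not. Its p-values are therefore not exact for this design. The 10 genes also varied more than most probes along the brains, with an SD over the 34 fractions of 0.51 (Foxc1) to 0.81 (Col1a1) against a median of 0.31 for all probes tested. With the slide as a block the differences lay between 0.65 and 1.12 and 1 of the 10, Slc6a13, stayed past the threshold (adjusted p = 0.0457). Col1a1 lost its call without coronal fraction 15 (0.91, adjusted p = 0.0726), horizontal fraction 8 (0.65, adjusted p = 0.121), sagittal fraction 1 (0.97, adjusted p = 0.0592) or sagittal fraction 11 (0.96, adjusted p = 0.0544), and Ogn without coronal fraction 15 (0.68, adjusted p = 0.096) or sagittal fraction 11 (0.80, adjusted p = 0.056).

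**Figure D1:**
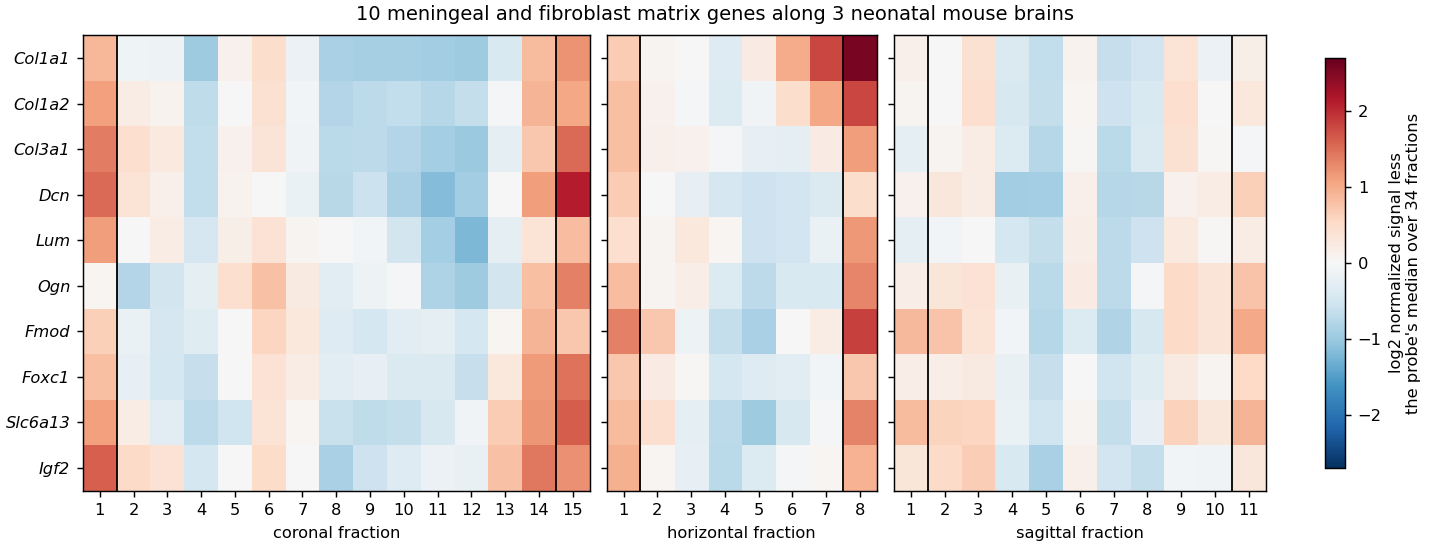
Log2 normalized signal of the 10 genes (vertical axis) in each coronal, horizontal and sagittal fraction (horizontal axes), less the median of the probe over 34 fractions; black lines set off the surface fractions. Red columns stand at both ends of the coronal and horizontal series and, in weaker colour, at inner fractions such as coronal 6 and sagittal 3 and 9.

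The fibrillar collagen genes were raised at both ends of the coronal series. Col3a1 read 4.41 in coronal fraction 1 and 4.56 in fraction 15, and its inner fractions ran from 2.03 through a median of 2.79 to 3.75. Both end fractions therefore lay above all 13 inner fractions. The coronal difference was 1.70 (SE 0.34, 3.26-fold, limma adjusted p = 0.000987), larger than that of 99.5% of all probes. Col1a1 read 4.13 and 4.46 at the coronal ends against inner fractions of 2.27 to 4.09 with a median of 2.84, a difference of 1.43 (SE 0.46, adjusted p = 0.0286). Col1a2, the partner chain of the type I trimer, read 6.27 and 6.21 against 4.38 to 6.08 with a median of 5.10 (difference 1.28, SE 0.36, adjusted p = 0.0133). For all 3 collagen genes the highest inner fraction was coronal fraction 14, next to the end. Without coronal fraction 1 the calls for Col1a1 (1.60, adjusted p = 0.0838) and Col1a2 (1.26, adjusted p = 0.0852) were lost, and likewise without fraction 15 (1.26, adjusted p = 0.218, and 1.31, adjusted p = 0.0953).

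In the horizontal series the collagen genes were not alike at the ends. Col3a1 read 3.84 in fraction 1 and 4.16 in fraction 8, both above the inner range of 2.75 to 3.24 (median 3.06). Col1a1 read 3.92 and 5.80, so that fraction 1 fell inside its inner range of 2.88 to 5.04 (median 3.39) while fraction 8 was the highest of all 34 fractions for this gene. The horizontal differences were 1.16 (SE 0.49) for Col1a1, 1.11 (SE 0.39) for Col1a2 and 0.98 (SE 0.36) for Col3a1, and none passed the adjusted threshold. In the sagittal series Col3a1 read 2.76 in fraction 1 and 2.96 in fraction 11, inside an inner range of 2.26 to 3.43, and its difference was 0.00 with a 95% interval of -0.71 to 0.71. Col1a1 and Col1a2 differed by 0.31 (SE 0.47) and 0.29 (SE 0.37) in that plane, with overlapping groups.

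Decorin had the largest coronal difference of the 10 genes. Dcn read 5.76 in coronal fraction 1 and 6.34 in fraction 15, with inner fractions between 3.04 and 5.35 and a median of 4.05. The end fractions did not overlap the inner ones, and the difference was 2.09 (SE 0.39, 4.26-fold, limma adjusted p = 0.000618). It read 4.91 and 4.69 at the horizontal ends against 3.65 to 4.22 inside (difference 0.94, SE 0.42). At the sagittal ends it read 4.33 and 4.86 against 3.29 to 4.52, so fraction 11 stood above the inner fractions and fraction 1 at their median.

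Fibromodulin was ordered otherwise. Fmod read 1.46 and 1.94 at the horizontal ends, and its inner horizontal fractions ran from -0.78 through a median of 0.03 to 0.82. Its horizontal difference of 1.72 (SE 0.39, 3.30-fold) was larger than that of 99.8% of probes and had an adjusted p of 0.0519. At the sagittal ends it read 0.98 and 1.13, again above the whole inner range of -0.72 to 0.86, with a difference of 1.01 (SE 0.37, adjusted p = 0.182). At the coronal ends it read 0.74 and 0.84 and was topped by coronal fraction 14 at 1.02 (difference 0.76, SE 0.36, adjusted p = 0.146).

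Osteoglycin was uneven between the coronal ends. Ogn read 1.28 in coronal fraction 1 and 2.58 in fraction 15, against inner fractions of 0.26 to 2.03 with a median of 0.95, so fraction 1 lay within the inner range (difference 0.87, SE 0.38, adjusted p = 0.119). Without coronal fraction 1 the difference was 1.52 (adjusted p = 0.0385). At the horizontal ends Ogn read 2.05 and 2.55, above an inner range of 0.51 to 1.40, and at the sagittal ends 1.41 and 1.99 against 0.49 to 1.74. Lumican read 1.57 and 1.27 at the coronal ends against -0.78 to 0.82 inside (difference 1.15, SE 0.31, adjusted p = 0.0104), and 0.89 and 1.62 at the horizontal ends against -0.11 to 0.72. Its sagittal ends, at 0.20 and 0.64, lay within the inner range of -0.27 to 0.70. The coronal call for Lum was lost without fraction 1 (1.00, adjusted p = 0.111) or without fraction 15 (1.30, adjusted p = 0.0535).

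Slc6a13 had the largest difference averaged over the planes, 1.24 (SE 0.23, 95% interval 0.77 to 1.71, limma adjusted p = 0.000715). It read 4.27 and 4.80 at the coronal ends against inner fractions of 2.46 to 4.36 with a median of 2.86, where fraction 14 passed fraction 1. It read 4.02 and 4.52 at the horizontal ends, above the inner range of 2.21 to 3.61. It read 4.03 and 4.10 at the sagittal ends, above the inner range of 2.53 to 3.79. With Fmod, Slc6a13 was thus a gene whose sagittal ends cleared all inner fractions, and its differences were 1.48 (SE 0.39), 1.42 (SE 0.41) and 0.83 (SE 0.40) in the coronal, horizontal and sagittal planes.

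Foxc1 had smaller differences than Slc6a13 in each plane, and its sagittal fraction 1 lay inside the inner range. It read 1.30 and 1.96 at the coronal ends against -0.13 to 1.63 inside (difference 1.23, SE 0.29, adjusted p = 0.00449), 1.21 at each horizontal end against 0.02 to 0.72, and 0.67 and 1.03 at the sagittal ends against -0.12 to 0.74. The growth factor Igf2 read 3.04 and 2.65 at the coronal ends against 0.55 to 2.84 inside (difference 1.34, SE 0.38, adjusted p = 0.0137). It read 2.38 and 2.37 at the horizontal ends, above an inner range of 0.70 to 1.48, and 1.74 and 1.73 at the sagittal ends, within an inner range of 0.55 to 2.09. Both ends of a plane were thus nearly equal for Igf2 in the horizontal and sagittal series. Without coronal fraction 15 the coronal calls for Foxc1 (0.91, adjusted p = 0.155), Slc6a13 (1.22, adjusted p = 0.149) and Igf2 (1.54, adjusted p = 0.0597) were lost, and that for Igf2 also without fraction 1 (1.15, adjusted p = 0.135).

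**Figure D2:**
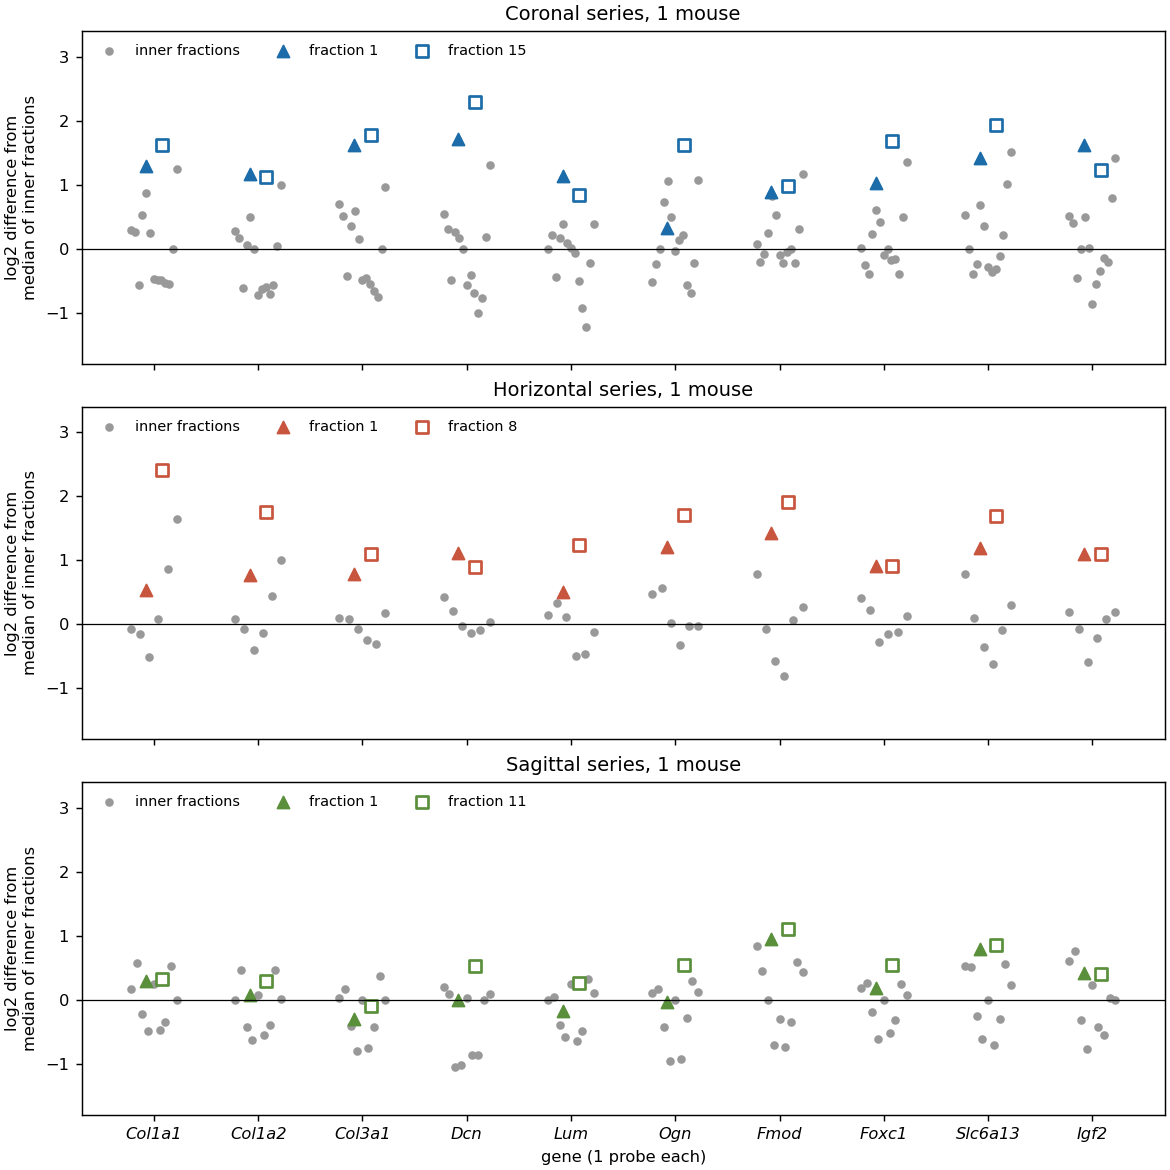
Each point is 1 fraction, drawn as the log2 difference from the median of the inner fractions of its series (vertical axis) for the 10 genes (horizontal axis), with inner fractions in grey, fraction 1 as a triangle and the last fraction as a square. Both coloured marks clear all grey ones for 5 genes in the coronal panel, 8 in the horizontal panel and 2 in the sagittal panel.

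By plane, 8 of the 10 genes passed the test in the coronal series, all but Ogn and Fmod, where 8.3% of all probes were higher and 9.45% lower (17.7% in either direction). In the horizontal series 0 of 10 passed, where 0.146% of probes were higher and 0.0439% lower, although all 10 had an unadjusted p under 0.05 by limma against 4.92% of all probes in that direction. limma-trend, run as another variance model, called Fmod there (1 of the 10, adjusted p = 0.0457). In the sagittal series 0 of 10 passed, where 0.111% of probes were higher and 0.0848% lower, and 2 of 10 (Slc6a13 and Fmod) had an unadjusted p under 0.05 against 11.9% of all probes, with 0 called by limma-trend. The medians of the 10 differences were 1.31, 1.14 and 0.46 in the coronal, horizontal and sagittal planes, against 0.05, 0.01 and 0.05 for all probes. Counted without a test, both surface fractions lay above every inner fraction for 5 genes in the coronal series (Col1a1, Col1a2, Col3a1, Dcn and Lum; 4.52% of all probes), for 8 in the horizontal series (all but Col1a1 and Col1a2; 4.82%) and for 2 in the sagittal series (Slc6a13 and Fmod; 20.1%). In the sagittal plane that share of 2 in 10 was no larger than the share among all probes.

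**Figure D3:**
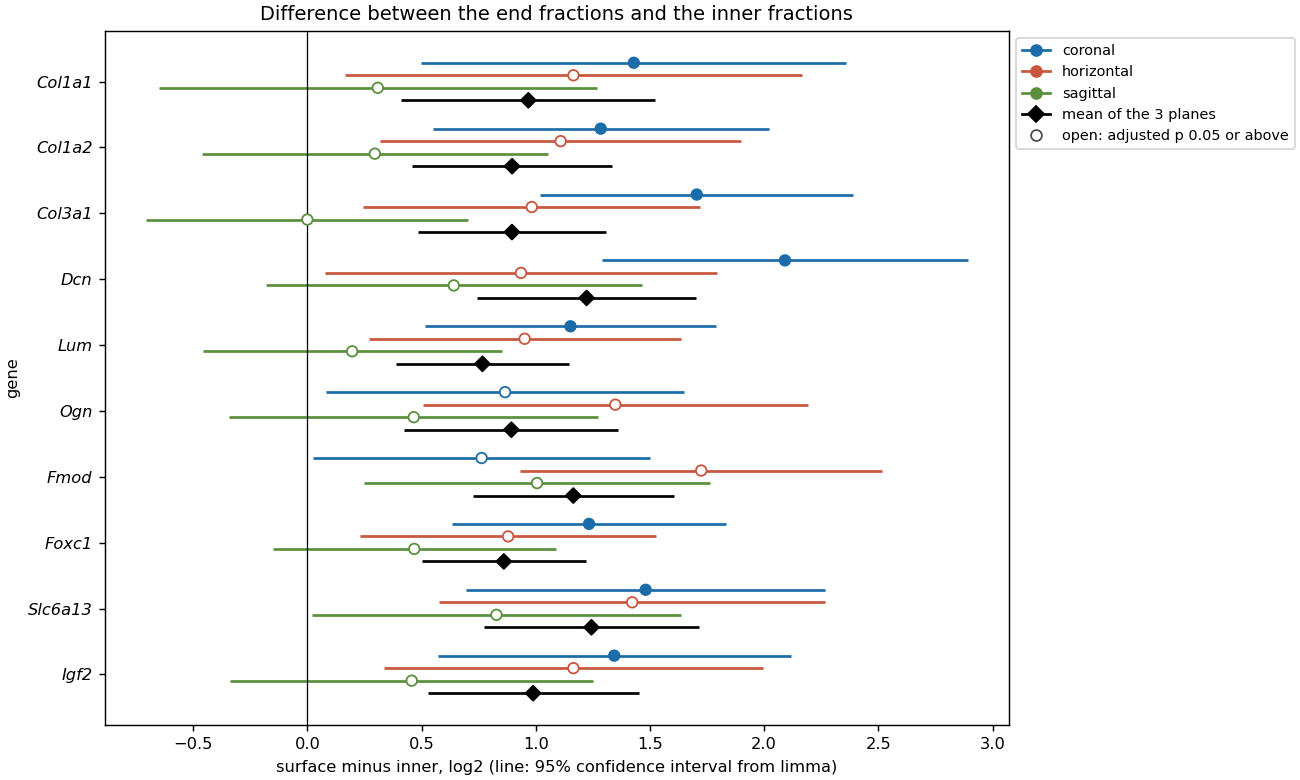
Surface minus inner difference on the log2 scale (horizontal axis) for the 10 genes (vertical axis), with 95% confidence intervals from limma, for each plane and for their mean; filled marks have an adjusted p under 0.05. Coronal marks are filled for 8 genes, the black marks of the mean for all 10, and the horizontal and sagittal marks for none.

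The difference between planes was tested directly. Col3a1 had a sagittal difference lower than its coronal one by -1.71 (SE 0.48, 95% interval -2.69 to -0.72, limma adjusted p = 0.0279), the single call among the 10 genes, where 2.22% of all probes were lower and 5.13% higher in this contrast (7.35% in either direction). With no filter on dim probes this call was lost. Dcn came next at -1.45 (SE 0.56, adjusted p = 0.109). Of the 10 genes, 9 had a smaller sagittal than coronal difference, Fmod being the exception at 0.24 (SE 0.52). Horizontal minus coronal differences passed for 0 of 10 genes, where 0.0146% of probes were higher and 0.00878% lower (0.0234% in either direction), and 0 of 10 also had an unadjusted p under 0.05; the estimates ran from -1.16 (Dcn, 95% interval -2.33 to 0.02) to 0.96 (Fmod, 95% interval -0.12 to 2.04). Horizontal minus sagittal differences passed for 0 of 10 genes and for 0 of all probes, again with 0 of 10 at an unadjusted p under 0.05, and ran from 0.29 (Dcn) to 0.98 (Col3a1). Because the sagittal end fractions pool a pair of cut fractions each, the smaller sagittal difference cannot be told apart from the thicker sample.

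The ends of a series were not equal. Relative to the median of the inner fractions, the median over the 10 genes was 1.23 in coronal fraction 1, 1.62 in coronal fraction 15, 1.00 in horizontal fraction 1 and 1.46 in horizontal fraction 8. It was 0.13 in sagittal fraction 1 and 0.46 in sagittal fraction 11. In horizontal fraction 8 all 10 genes stood above every inner fraction, in horizontal fraction 1 and coronal fraction 15 it was 8 genes, in coronal fraction 1 it was 6, in sagittal fraction 11 it was 5 and in sagittal fraction 1 it was 2. Each end is 1 array, so these values have no test. For all probes the share was counted for both ends together only. It was 4.52% in the coronal, 4.82% in the horizontal and 20.1% in the sagittal series. The counts of genes at single ends therefore have no share of their own to be set against. A share at a single end cannot be smaller than that for both ends. In sagittal fraction 1 the 2 of 10 genes were thus no larger a share than that among all probes. From coronal fraction 1 to 15, Ogn rose by 1.30 on the log2 scale and Igf2 differed by -0.39, the extremes among the 10 genes.

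Inner fractions held maxima of their own. In coronal fraction 6, 9 of the 10 genes (all but Dcn) stood above both neighbouring fractions, with Col1a1 at 3.71 between 3.36 and 3.09 and Ogn at 2.01 between 1.68 and 1.45. In sagittal fraction 6, the middle of that series by number, all 10 genes stood above both neighbours. Dcn, for instance, read 4.36 there between 3.31 and 3.46, and Col3a1 3.07 between 2.26 and 2.30. Sagittal fraction 9 was a maximum for 9 genes and sagittal fraction 3 for 7, and sagittal fractions 5 and 7 were minima for 9 genes each. Coronal fractions 4 and 12 were minima for 8 and 7 genes. In the horizontal series 9 of the 10 genes had their lowest value in fraction 4 or 5, and 7 had their highest in fraction 8. These are counts of single arrays with no test. The same counts were not made over all probes. The 10 genes were correlated along the brains, so a shared maximum or minimum is not 10 separate observations.

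The type I collagen genes differed most between the horizontal ends. Col1a1 read 3.92, 3.31, 3.23, 2.88, 3.47, 4.25, 5.04 and 5.80 in horizontal fractions 1 to 8. From fraction 1 to 8 it rose by 1.89 on the log2 scale and Col1a2 by 0.99, against 0.73 for Lum and 0.31 to 0.50 for Col3a1, Fmod, Ogn and Slc6a13, and Foxc1, Igf2 and Dcn differed by 0.00, -0.01 and -0.22. Among 5 bone genes tested in this plane, 0 passed by limma and 0 had an unadjusted p under 0.05. Of all probes, 4.92% were higher and 3.77% lower at that unadjusted p. As a description of single arrays, the summed normalized signal of the 7 bone genes matched (1 being the 75th percentile of an array) was 1.32 in fraction 1, between 0.90 and 1.40 in fractions 2 to 5, 2.16 in fraction 6, 3.47 in fraction 7 and 8.04 in fraction 8, where 6 of the 7 were well above background. Ibsp, a bone matrix protein, read 1.99 in horizontal fraction 8 against a series median of -4.11, the largest single share of that sum, and was well above background in 5 of 8 horizontal fractions. Runx2, a defining bone factor, was well above background in 0 of 34 fractions. In the other series the bone sum stayed between 0.74 and 1.62. This comparison was chosen after the values were seen, and the contribution of bone to the Col1a1 profile was not tested.

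**Figure D4:**
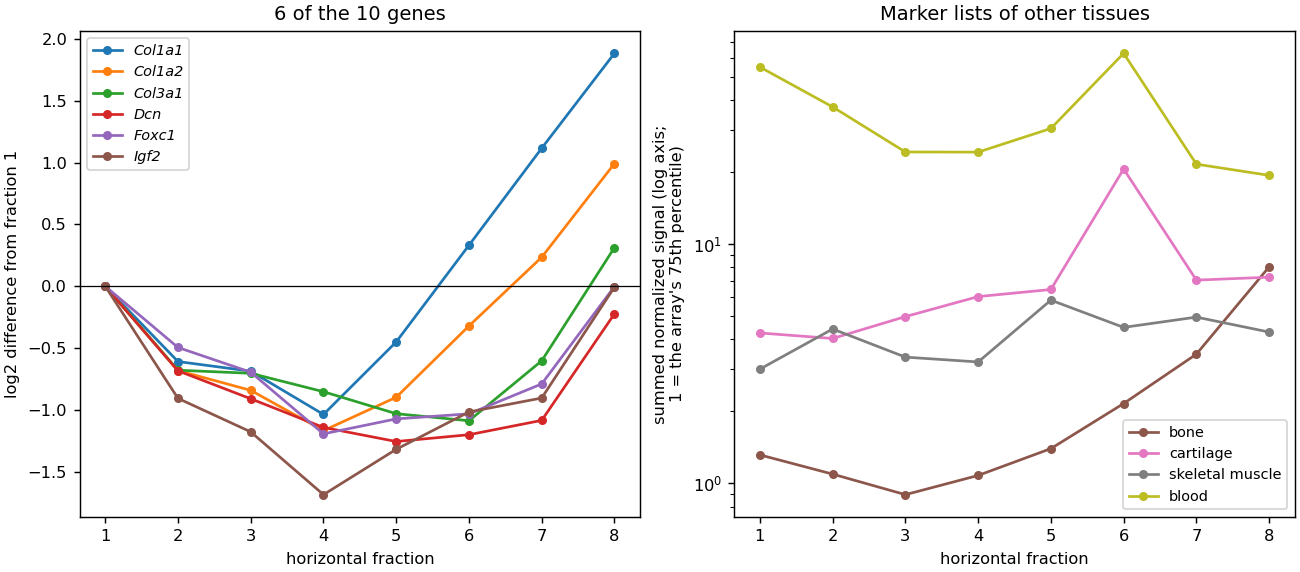
Left, log2 difference from fraction 1 (vertical axis) of 6 of the genes along horizontal fractions 1 to 8 (horizontal axis); right, summed normalized signal of 4 marker lists on a log axis. Col1a1 ends 1.89 above its first value, and the bone sum reaches 8.04 in the same fraction.

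Arrays lay on 5 slides, and the slides hold fractions of 1 or a few planes. Within slide 1, the horizontal end fractions exceeded 4 inner fractions by 0.85 to 1.59 over the 10 genes. Within slide 2, coronal fraction 1 exceeded 7 inner fractions by 0.11 (Ogn) to 1.68 (Dcn). Within slide 3, coronal fraction 15 exceeded 5 inner fractions by 0.74 to 2.42. All 10 differences were above 0 on each of these slides. The same count was not made over all probes. The surface side of a slide is 1 or 2 arrays and the 10 genes were correlated, so these are not 10 separate observations. On slide 5, sagittal fraction 11 differed from 1 inner fraction by -0.10 to 0.67, and 9 of the 10 values were above 0. Sagittal fraction 1 shared its slide with no inner sagittal fraction.

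Other genes of the matrix and the meninges were read from lists, as means over the 3 planes. Of 24 genes listed as meningeal regulators and transporters, 20 were higher and 0 lower, with a median of 1.01 against 0.03 for all probes. By the same test 7.45% of all probes were higher and 5.36% lower. In the coronal plane alone 13 of the 24 were higher and 0 lower, where 8.3% of all probes were higher and 9.45% lower. In the horizontal and sagittal planes 0 of the 24 passed, where 0.19% and 0.196% of all probes passed. Foxc2, the paralogue of Foxc1, led at 1.41 (SE 0.25), followed by the organic cation transporter gene Slc22a2 at 1.31 (SE 0.37), the transporter gene Slc47a1 at 1.30 (SE 0.32), the retinoic acid synthesis gene Aldh1a2 at 1.26 (SE 0.23) and the T-box gene Tbx15 at 1.20 (SE 0.22). Zic1, Twist2, Slc6a12 and Slc6a20a did not pass, at -0.72 (SE 0.30), -0.16 (SE 0.16), 0.60 (SE 0.33) and 0.68 (SE 0.24).

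Genes of collagen assembly were more divided. Of 10 further fibrillar and fibril-associated collagen genes 5 were higher and 0 lower (median 0.54), namely Col6a2 at 0.98 (SE 0.20), Col6a1 at 0.97 (SE 0.21), Col5a1 at 0.73 (SE 0.21), Col16a1 at 0.67 (SE 0.16) and Col5a2 at 0.65 (SE 0.17). Of 14 collagen processing genes 7 were higher and 0 lower (median 0.42), led by Lox, which crosslinks collagen, at 1.35 (SE 0.21), Adamts2, which trims procollagen, at 1.18 (SE 0.23) and Pcolce, the enhancer of the procollagen C-proteinase, at 1.05 (SE 0.17). The prolyl hydroxylase genes P4ha1, P4ha2 and P4ha3 did not pass, at -0.15 (SE 0.07), 0.19 (SE 0.11) and 0.16 (SE 0.09). Of 14 other fibroblast matrix genes 10 were higher and 0 lower (median 0.56), led by the microfibril gene Mfap5 at 1.23 (SE 0.17) and Mgp at 1.16 (SE 0.22). In the coronal plane alone 6 of the 10 collagen genes, 7 of the 14 processing genes and 10 of the 14 matrix genes were higher. In the horizontal and sagittal planes 0 genes of these lists passed.

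The proteoglycan family outside Dcn, Lum, Fmod and Ogn did not move as 1 group. Of 9 tested, Omd (0.87, SE 0.26) and Bgn (0.71, SE 0.10) were higher, Nyx, known from the retina, was lower at -0.54 (SE 0.16), and the median was -0.07. In the Igf2 axis 4 of 11 genes were higher and 0 lower (median 0.19): the binding protein genes Igfbp6 at 1.51 (SE 0.24), Igfbp4 at 0.85 (SE 0.17) and Igfbp2 at 0.51 (SE 0.11), and the RNA-binding gene Igf2bp1 at 0.76 (SE 0.20). The receptor genes Igf1r and Igf2r did not pass, at -0.19 (SE 0.07) and 0.04 (SE 0.07). Of all probes, 7.45% were higher and 5.36% lower in this mean. In the coronal plane alone 1 proteoglycan gene was higher and 1 lower, and 3 genes of the Igf2 axis were higher and 1 lower. There 8.3% of all probes were higher and 9.45% lower. In the horizontal and sagittal planes 0 genes of both lists passed.

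Markers of other cells differed in how far they moved with the 10 genes. Blood moved with them in part, with 3 of 4 genes tested higher (Hba-a1 1.13, SE 0.26; Alas2 0.94, SE 0.24; Hbb-bt 0.94, SE 0.23). The summed blood signal was 31.9 and 36.3 at the coronal ends against 6.84 to 20.7 inside, and 26.4 and 19.4 at the sagittal ends against 5.46 to 14.4 inside. At the horizontal ends it was 55.0 and 19.4 against 21.6 to 62.8, so blood was at its lowest in that series in horizontal fraction 8. All 10 genes stood above the inner fractions there, a count on 1 array with no share over all probes beside it. Endothelial genes were higher in 3 of 9 (Cdh5 0.69, SE 0.17; Cldn5 0.63, SE 0.15; Pecam1 0.30, SE 0.07) and mural genes in 3 of 9 (Tagln 0.74, SE 0.19; Des 0.49, SE 0.16; Pdgfrb 0.33, SE 0.10), with medians of 0.30 and 0.16. The other defining markers did not pass: Kdr of the endothelium (0.28, SE 0.11), and Acta2 (0.30, SE 0.22), Rgs5 (0.16, SE 0.105) and Cspg4 (-0.24, SE 0.09) of mural cells. In the coronal plane alone 2 endothelial genes were higher and 1 lower, and 2 mural genes were higher and 0 lower. Of all probes, 8.3% were higher and 9.45% lower in that plane by the same test. In the mean of the 3 planes 7.45% of all probes were higher and 5.36% lower. The contribution of vessels and blood to the surface difference was not tested.

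Choroid plexus genes mostly ran the other way, with 0 of 10 higher and 3 lower and a median of -1.28. The lower genes were Kcne2 at -2.28 (SE 0.74), Ttr at -2.01 (SE 0.64) and Sostdc1 at -1.30 (SE 0.39). By the same test 7.45% of all probes were higher and 5.36% lower. The other defining markers Folr1 (-1.56, SE 0.59), Clic6 (-0.78, SE 0.47) and Kl (-0.475, SE 0.34) did not pass. Aqp1 lay above 0, at 0.17 (SE 0.46), and did not pass. By plane, 4 choroid plexus genes were lower in the coronal series and 0 passed in the horizontal or sagittal series. The medians were -1.72, -0.67 and -0.72, and the Ttr differences -4.62, -1.04 and -0.38, in that order. The summed signal of the list was highest in coronal fraction 3, at 375. There 1 of the 10 matrix and meningeal genes, Lum, stood above both neighbouring fractions. In the mean of the 3 planes by limma, 0 of 5 bone genes, 0 of 7 cartilage genes, 0 of 7 skeletal muscle genes, 0 of 8 skin and epithelial genes and 0 of 8 neuronal genes passed in either direction, with medians of 0.52, 0.11, -0.04, -0.15 and -0.03. At an unadjusted p under 0.05 the counts were 0 for bone and skin, and 1 lower gene for cartilage, 1 for muscle and 2 for neurons. Of all probes, 17.5% were higher and 13.2% lower at that p. The coronal plane taken alone differed from this mean. There the neuronal genes Gap43 (-0.77, SE 0.15, limma adjusted p = 0.000736) and Stmn2 (-0.62, SE 0.12, adjusted p = 0.00109), the skin genes Lor (-0.69, SE 0.15) and Krt1 (-0.82, SE 0.21) and the embryonic myosin gene Myh3 (-1.81, SE 0.45) were lower, and the cartilage collagen genes Col9a1 (0.92, SE 0.26) and Col9a2 (0.86, SE 0.24) were higher. By the same test 8.3% of all probes were higher and 9.45% lower in the coronal plane. In the horizontal and sagittal planes 0 genes of these 5 lists passed by limma. Of all probes, 0.19% and 0.196% passed in these planes, in either direction. At an unadjusted p under 0.05 there were in the horizontal plane 2 lower cartilage genes, 1 lower muscle gene and 1 lower neuronal gene. Of all probes, 4.92% were higher and 3.77% lower there. In the sagittal plane there were 3 higher and 1 lower neuronal genes, 1 higher muscle gene, 1 higher skin gene and 1 lower cartilage gene. Of all probes, 11.9% were higher and 6.37% lower in that plane.

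The summed signal of the 8 neuronal genes was 551 and 560 at the coronal ends, below all inner fractions (645 to 898). It was 895 and 831 at the sagittal ends, above all inner fractions (663 to 772), and 651 and 712 at the horizontal ends against 669 to 837. The neuronal sum thus lay lower at the ends in the coronal plane, where 8 of the 10 genes were called, and higher in the sagittal plane, where 0 were called. The contribution of neuronal content to the surface difference was not tested. Of the defining muscle markers, Ckm was well above background in 4 of 34 fractions, and the summed muscle signal stayed between 3.00 and 9.25.

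**Figure D5:**
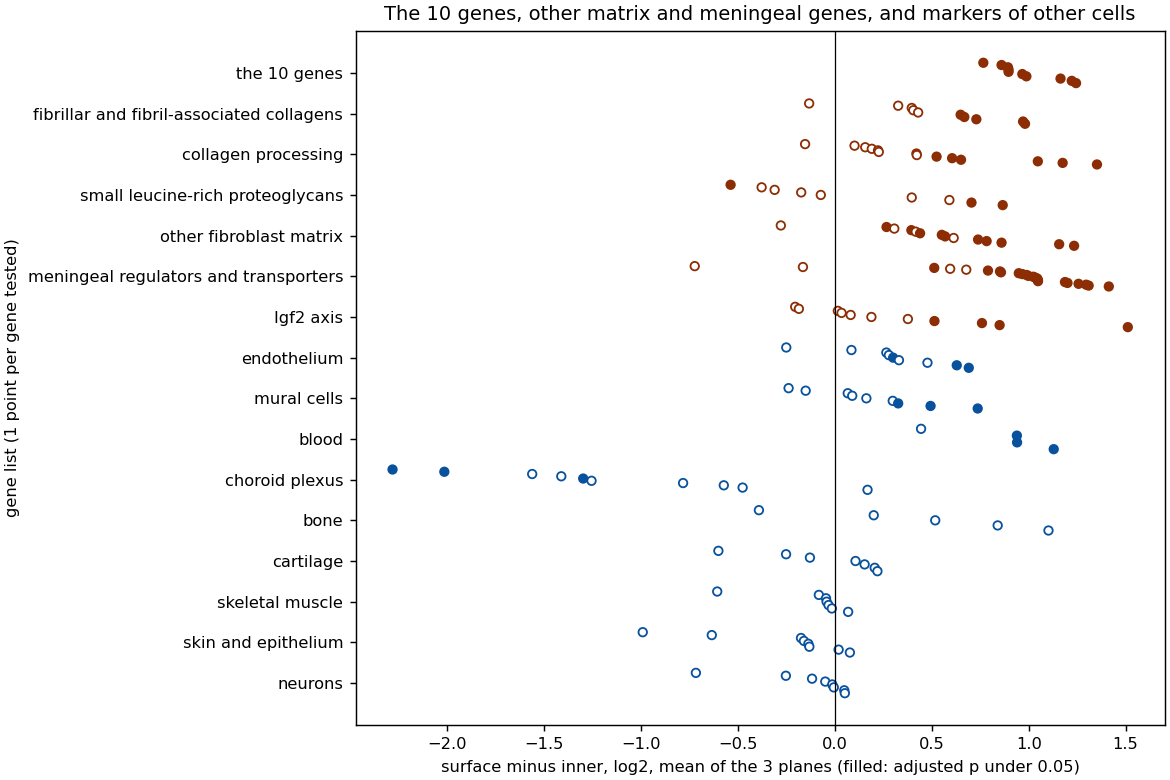
Surface minus inner difference, mean of the 3 planes (horizontal axis, log2), with 1 point per gene tested in each list (vertical axis); filled points have an adjusted p under 0.05. The 10 genes and most meningeal regulators lie to the right of 0, and choroid plexus genes lie mostly to the left.

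Along all 34 fractions the 10 genes rose and fell together. Pearson's r was above 0 for all 45 pairs, from 0.57 (Ogn and Igf2) to 0.96 (Col1a1 and Col1a2), with a median of 0.77. With each series centred on its own mean the median was 0.81, and within the coronal (n = 15), horizontal (n = 8) and sagittal (n = 11) series the medians were 0.86, 0.89 and 0.88. Next to the type I pair stood Col3a1 with Dcn (0.90) and Foxc1 with Slc6a13 (0.90). The values share arrays and neighbouring positions, so they are given as a description.

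Genes outside the 10 with the most similar course over the 34 fractions were found by the same measure. Foxc1 was nearest to its paralogue Foxc2 (r = 0.95), Ogn to Omd (0.93), Col3a1 to Col5a1 (0.95), Col1a2 to Col6a2 (0.94) and Col1a1 to Ccn4 (0.90) and the osteoclast protease gene Ctsk (0.88). Fmod was nearest to the sulfate transporter gene Slc13a4 (0.93) and the macrophage receptor gene Mrc1 (0.92), and Slc6a13 to Nupr1 and Emp3 (0.97 each). Dcn was nearest to Bicc1 (0.95), Lum to Cfhr2 (0.91) and Igf2 to the transcription factor genes Osr1 and Hic1 (0.92 each). The number of probes at r of 0.85 or above ran from 6 for Col1a1 and 7 for Ogn to 160 for Slc6a13.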

How the data were processed

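Fractions of 3 brains were hybridised to single-colour Agilent SurePrint G3 Mouse GE arrays and scanned by the authors with Feature Extraction 10.10.1.1. Per the file headers, the deposited intensity columns are the median signal of each spot, the median local background and a background-subtracted processed signal that is not scaled between arrays. A log2 table of 43199 probes, deposited by the authors, matched the processed signal shifted by 1 constant per array (99.9% of values within 0.02).

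Here repeated spots were averaged, and log2 values were centred on the 75th percentile of each array. Of 55681 probes that are not controls, 26582 were named through RefSeq accessions (table of GRCm38.p6, for names and promoter windows only), and 34186 probes were tested, those called well above background somewhere in all 3 series. Groups were plane and position, taken from the fraction number in the labels. limma 3.58.1 in R 4.3.3 (lmFit, eBayes, 6 group means over 34 arrays, Benjamini-Hochberg) gave the differences, and Python 3.11.15 with scipy 1.17.1 the rest. On simulated data for the mean of the 3 planes, 170 of 200 probes changed by 1 on the log2 scale were recovered among 34186, with 8 false calls. The simulated fractions were independent of each other, unlike ordered slices of 1 brain. These counts therefore do not show how the test behaves on the real fractions. Normexp used the median signal, as the files hold no mean signal.

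For a gene with several probes in a list the brightest was used. Genes named are the 10 genes, the 3 most similar genes to each and defining markers. From a list, at most 5 genes with the largest difference past the threshold are named. P4ha1, P4ha2, P4ha3, Zic1, Twist2, Slc6a12, Slc6a20a, Igf1r, Igf2r, Gap43, Stmn2, Lor, Aqp1 and the orientation markers were named after their values were seen. The 10 genes and the lists were chosen with earlier results of these data known. Alternatives were other scalings, background correction, the deposited table, no filter, limma-trend, the slide, other definitions of surface, and leaving out each surface fraction. Some marker genes are not reported here.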

Additional observations from a re-analysis of the deposited data

Results flagged for a closer look

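One result stood out by a test of the difference between planes. For Col3a1 the surface minus inner difference in the sagittal plane was lower than that in the coronal plane by -1.71 on the log2 scale (SE 0.48, limma adjusted p = 0.0279). The coronal means were 4.49 at the ends and 2.78 inside, and the sagittal means were 2.86 at the ends and 2.86 inside. Without the filter on dim probes, 0 of the 10 genes passed in this contrast. Plane cannot be told apart from mouse, and the sagittal end fractions are pools of cut fractions. Among the 20 sets of inner values that were searched for 1 value far from the others (10 genes in the horizontal and sagittal series), 0 held one, where chance gives about 1 in 20.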

How the results depend on the processing

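The mean over the 3 planes was called for all 10 genes with the array median, quantile normalization, normexp, the deposited table, no filter, limma-trend, the rank from the nearest end and the exact permutation test; it was called for 9 genes with 2 fractions at each end, for 1 with the slide as a block, and for 8 to 10 when a surface fraction was left out. The coronal count of 8 was 2 to 5 when an end was left out, and 7 by rank. The horizontal count of 0 became 1 with normexp or limma-trend (Fmod) and 2 by rank, and the sagittal count of 0 became 2 by rank (Slc6a13 and Fmod in both planes). The sagittal minus coronal call for Col3a1 became 0 with no filter. Small sagittal differences changed sign: Col3a1 was 0.11 with the array median, 0.17 with 2 fractions at each end, 0.078 per fraction by rank, and -0.105 to 0.104 when an end was left out; Lum was -0.28 with the slide as a block and -0.024 to 0.416 when an end was left out; Ogn was -0.053 with the slide as a block. Of 490 values for single genes under alternatives, 449 kept their direction and side of the threshold. The median of the 45 correlations stayed between 0.75 and 0.81. The permutation test was read at an unadjusted p under 0.05 and takes ordered fractions as exchangeable.

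Counts over all probes depended more on the setting. The coronal count of 6066 became 10863 with normexp, 9779 by rank and 3135 without fraction 15. The count of 4377 for the mean became 10415 with normexp and 1067 with the slide as a block, and 2087 to 6908 when a surface fraction was left out. The horizontal count of 65 ran from 0 (slide, or 2 fractions at each end) to 237 (rank), and the sagittal count of 67 from 3 (slide) to 1451 (rank). Higher calls were 46.8% of the coronal calls as reported, 22.7% with the array median and 71.4% with normexp. For the sagittal plane they were 56.7%, 89.3% and 91.1%, and for the mean 58.2%, 57.1% and 80.0%. The array median moved the median of all probes from 0.05 to -0.06 in the coronal plane and to 0.17 in the sagittal plane, and normexp moved it to 0.18 and 0.14. The causes were not tested. No paired analysis was possible because fraction numbers shared between series mark positions in different mice cut in different planes. Every surface group holds 2 arrays of 1 mouse, which limits what any test can show.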
